A study of Rattus norvegicus with 32 samples.

Results

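A set of 10 genes of cellular iron handling was followed in the adult rat hippocampus: Tf, Tfrc, Steap3 and Slc11a2 for uptake, Fth1 and Ftl1 for storage, Slc40a1 and Cp for export, and Aco1 and Ireb2 for control. They were taken by gene symbol from the raw RNA-seq count tables, where they make up 10 of 30246 symbols and 11 of 32883 entries, since Slc40a1 is listed with 2 identifiers. The rats were Sprague-Dawley, 65 days old, with 4 male and 4 female rats in each of 4 diet groups. The male groups were IS (always iron-sufficient), ISch (iron-sufficient with choline), FID (formerly iron-deficient) and FIDch (formerly iron-deficient with choline). The female groups are named IS, ISch, ID and IDch here, as their libraries are, and the labels write ID for the diet of both sexes. In the study's methods, which describe the males, litters were made iron-deficient through the diet of the dam from early gestation into the neonatal period, and choline was added to the dam's diet in later gestation. All of these rats were then fed an iron-sufficient diet, so the FID and FIDch rats were iron-repleted when the tissue was taken, and a single male came from each litter. Those methods mention female pups in the culling of litters, used male offspring only, and do not describe the females of these libraries. The study reprocessed RNA-seq data from earlier work, and its discussion mentions separate groups of animals. Whether each detail above holds for the rats of these libraries is not stated there. The labels give sequencing batch I for every male and batch II for every female. The effects of sex and batch therefore cannot be told apart, and levels are compared within a sex only.

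Iron circulates bound to transferrin (Tf), which binds the transferrin receptor (Tfrc) at the cell surface and is taken into endosomes. There Steap3 reduces the iron, and the divalent metal transporter Slc11a2 moves it into the cytosol. Iron that is not used is stored in ferritin, a shell built from heavy (Fth1) and light (Ftl1) chains, or leaves the cell through ferroportin (Slc40a1) after which ferroxidases such as ceruloplasmin (Cp) oxidize it for loading onto transferrin. The iron regulatory proteins encoded by Aco1 and Ireb2 bind to transcripts of this system when iron is scarce. They protect the Tfrc transcript from decay and block translation of the ferritins. In the adult brain, oligodendrocytes are a main source of Tf transcripts.

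Libraries held 3515806 to 9517503 counts in males and 18439999 to 26616318 in females. Excitatory neuron genes were abundant in all of them, with a summed level of 4760 to 5970 CPM (counts scaled to the same library total) for 8 hippocampal neuron markers. A single library stood apart in the markers of neighbouring tissue. Male FID replicate 4 had a summed 429 CPM over 10 choroid plexus genes, while the other male FID libraries had 9.86, 11.5 and 22 CPM. The other male groups lay between 5.71 and 9.42 CPM, so every FID male was above them. The female groups lay between 5.4 and 20.5 CPM. Leaving out FID replicate 4 therefore does not remove the higher sum of the FID males. Otx2, a defining choroid plexus gene, had 0 counts in every library of both sexes. Calls of iron genes that were lost without male FID replicate 4 are given with and without it, and Fbxl5 was not refitted without it. Female IDch replicate 4 differed most from its own group, with a chi-square per gene of 22.4 to 25.2 against the other IDch rats, while no other pair of rats of a group exceeded 14.3.

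Of the 10 genes, 9 passed the filter on low counts in males and all 10 did in females. The criterion for a call was that of the study's methods: a log2 fold change of more than 0.2 in either direction and an unadjusted p under 0.05, here from edgeR's quasi-likelihood test. Against male IS, the criterion was met by 0 of 9 genes in ISch (8.06% of all genes tested met it), by 1 in FID (4.62%) and by 0 in FIDch (6.12%). The gene called in FID was Tfrc, which was higher. Between the male choline groups and their counterparts, 2 of 9 were called in FIDch against FID (13.0%), Tfrc and Ireb2, both lower, and 0 in FIDch against ISch (8.12%).

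In females, 1 of 10 genes met the criterion in ISch against IS (10.3% of all genes), 0 in ID against IS (6.47%) and 2 in IDch against IS (8.98%). The called genes were Tf in ISch and both Tf and Tfrc in IDch, all higher. None of the 10 met it in IDch against ID (12.7%) or in IDch against ISch (4.57%). At a Benjamini-Hochberg adjusted p under 0.05, the calls left were Tfrc and Tf in female IDch against IS, where 0.907% of all genes passed that limit. The median log2 fold change of the 10 genes in that comparison was 0.09, against 0 over all genes, and in the other pairs of groups of either sex it lay between -0.06 and 0.10. The comparisons of ISch, FID or ID, and FIDch or IDch with IS share the 4 IS libraries of their sex. They are therefore not independent of each other, and their values are set side by side.

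**Figure D1:**
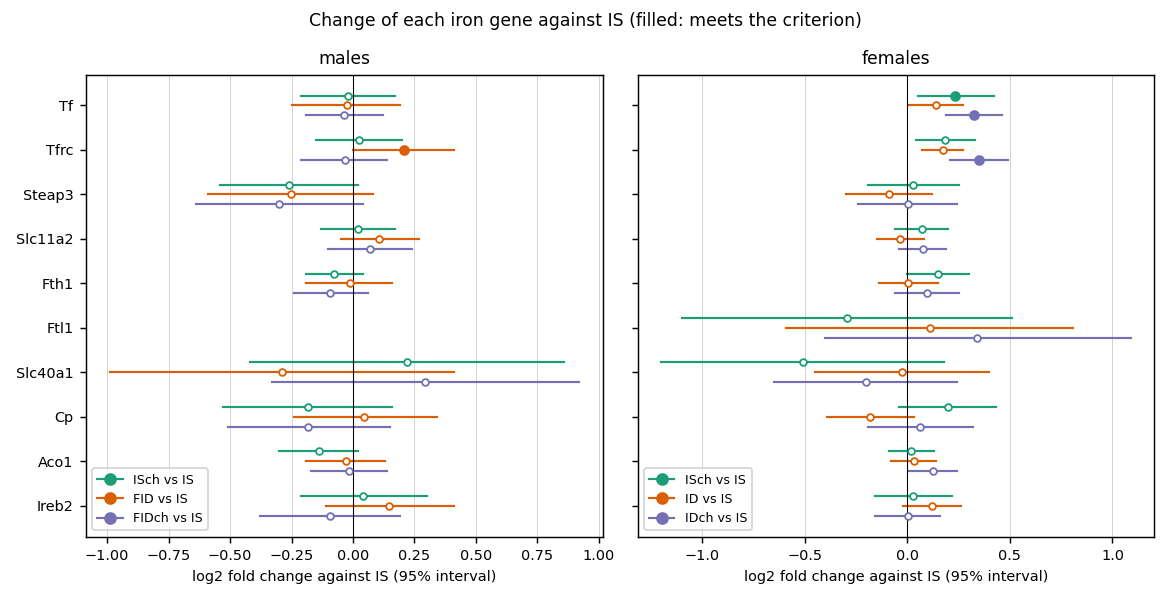
Log2 fold change of each iron gene against IS (horizontal axis, with 95% interval) in males (left) and females (right), with 1 colour per diet group and filled points for genes at the criterion. Tfrc in male FID, Tf in female ISch, and Tf and Tfrc in female IDch are filled, and the intervals of Slc40a1 and Ftl1 are the widest.

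Transcripts of Tfrc (ENSRNOG00000001766), the receptor that brings transferrin-bound iron into the cell, were highest in female IDch rats. Their normalized counts were 4195, 3667, 3873 and 3523 in IDch and 3237, 3026, 2855 and 2863 in IS. The lowest IDch rat was above the highest IS rat. Mean counts were 3814 ± 292 (SD, n = 4) in IDch and 2995 ± 179.6 in IS, a 1.27-fold difference with a log2 fold change of 0.35 (SE 0.064). The adjusted p was 0.0348 in edgeR's quasi-likelihood test, and a 2-sided exact permutation test gave p = 0.029, the smallest that 4 against 4 rats allow. When single libraries were left out, the log2 fold change stayed between 0.30 and 0.39 and the criterion was met each time. The adjusted p of edgeR's test lay between 0.01 and 0.126 in the 8 fits and was under 0.05 in 1 of them, that without IDch replicate 4, the library farthest from its group, where the log2 fold change was 0.38. Summed microglial marker genes were at 242 to 252 CPM in IDch and 265 to 278 CPM in IS, without overlap, and summed endothelial marker genes at 183 to 207 and 205 to 216 CPM, with overlap. Of 7 neuron markers tested, 1 was called in IDch against IS, where 8.98% of all genes were called. It was Prox1 of granule neurons, at 0.30 (adjusted p = 0.0696 from edgeR's test). Prox1 was also the 1 called of 7 neuron markers in ISch against IS (0.39, adjusted p = 0.0227 from edgeR's test). In IDch against ID it was the 1 called of 8 (0.39, adjusted p = 0.00559 from edgeR's test). Of 8 astrocyte genes tested, 1 was higher in IDch (Aldh1l1, 0.28) and 1 lower (Gja1, -0.23). Of 5 choroid plexus genes tested, 2 were called, Ttr (-1.05) and Aqp1 (-0.99), both lower in IDch. The choroid plexus sum, 5.4 to 7.44 CPM in IDch, overlapped with 7.06 to 10.5 CPM in IS. The part of these cell types in the Tfrc difference was not tested.

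The other female groups lay between these for Tfrc. ID rats had 3281, 3459, 3293 and 3470 normalized counts, all above the 4 IS rats and all below the 4 IDch rats. The log2 fold change of ID against IS was 0.17 (SE 0.047, adjusted p = 0.179 from edgeR's test), below the size that the criterion asks for. That of IDch against ID was likewise 0.17 (SE 0.057, adjusted p = 0.146 from edgeR's test). ISch rats, with 3428, 3035, 3730 and 3453, overlapped with IS, ID and IDch, and their log2 fold change against IS was 0.19 (SE 0.064, adjusted p = 0.181 from edgeR's test). In order of mean level the female groups were IS, ID, ISch and IDch. Of the neighbours in this order, IS and ID did not overlap, while ID with ISch and ISch with IDch did.

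In males, Tfrc was highest in FID. Normalized counts were 1406, 1608, 1388 and 1705 in FID and 1235, 1325, 1543 and 1167 in IS, and the groups overlapped because of 1 IS rat at 1543. The log2 fold change was 0.21 (SE 0.094), with an adjusted p of 0.786 from edgeR's test and p = 0.11 in the exact permutation test. It met the criterion by a narrow margin. It no longer did without IS replicate 1, 2 or 4 or without FID replicate 2 or 4. The value without FID replicate 4, the rat with the highest Tfrc level and the highest choroid plexus sum, was 0.16. Of 2 choroid plexus genes tested in FID against IS, 1 was called (4.62% of all genes). It was Ttr, at 5.80 (adjusted p = 0.786 from edgeR's test), and its relation to Tfrc was not tested.

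FIDch males had lower Tfrc counts than FID males. The 4 FIDch rats had 1338, 1297, 1253 and 1253, below every FID rat, and close to the ISch rats at 1332, 1269, 1379 and 1377. The log2 fold change of FIDch against FID was -0.26 (SE 0.071, adjusted p = 0.0961 from edgeR's test, p = 0.029 in the exact permutation test). Without FID replicate 4 it was -0.20 and missed the criterion. The choroid plexus sum was 429 CPM in that rat and 9.86 to 22 CPM in the other FID rats, against 5.77 to 7.96 CPM in FIDch. Of 2 choroid plexus genes tested, 1 was called in FIDch against FID (13.0% of all genes). It was Ttr, at -6.25 (adjusted p = 0.0912 from edgeR's test). The part of choroid plexus transcripts in the Tfrc difference was not tested.

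Whether choline was followed by a different Tfrc change in formerly iron-deficient than in iron-sufficient males was tested as an interaction over the 16 male libraries. The interaction was -0.27 on the log2 scale (SE 0.11, adjusted p = 0.256 from edgeR's test) and met the criterion, as did 14.4% of all genes. Tfrc was the called gene among the 9 tested. Without IS replicate 4 or FID replicate 4 the interaction was -0.22 in both fits and missed the criterion through its p-value. In females 0 of 10 genes met the criterion for the interaction (7.33% of all genes).

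**Figure D2:**
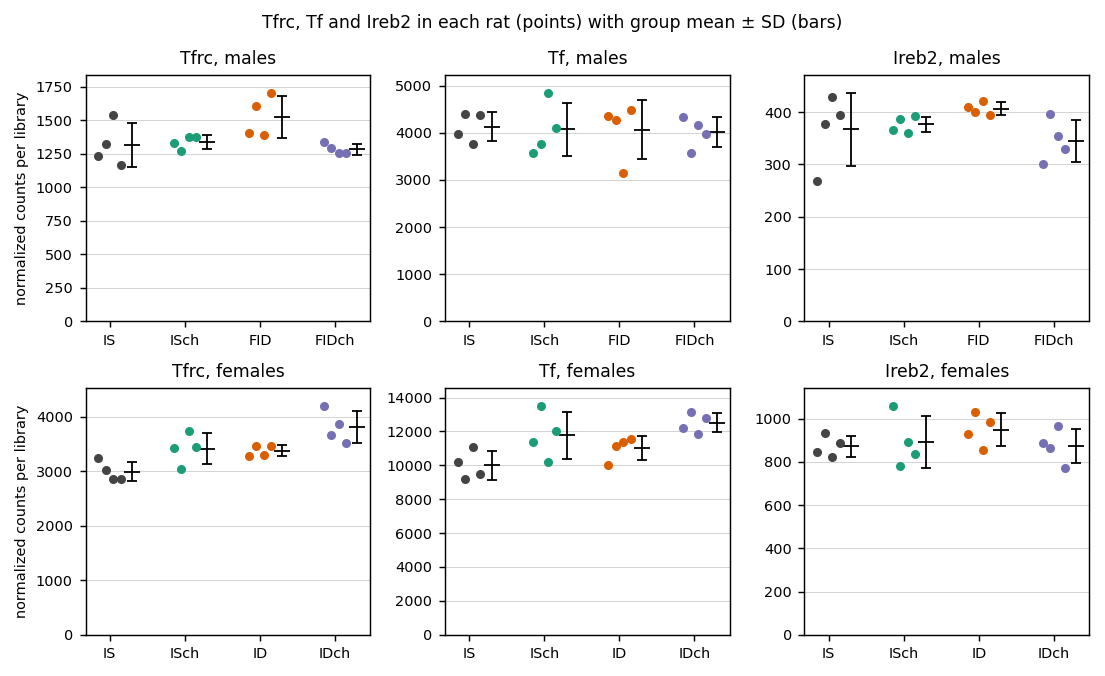
Normalized counts of Tfrc, Tf and Ireb2 in each rat (points, vertical axis from 0) by diet group, with group mean ± SD beside them, in males (upper panels) and females (lower panels). The 4 female IDch rats lie above the 4 IS rats for Tfrc and Tf, and the 4 male FIDch rats lie below the 4 FID rats for Tfrc.

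Tf (ENSRNOG00000030625), the iron carrier itself, was higher in both choline groups of females. IDch rats had 12229, 13120, 11877 and 12804 normalized counts and IS rats had 10216, 9182, 11085 and 9485, with no overlap. The log2 fold change was 0.32 (SE 0.063), a 1.25-fold difference, with an adjusted p of 0.0445 from edgeR's test and p = 0.029 in the exact permutation test. It stayed between 0.29 and 0.38 with single libraries left out and met the criterion in each of those 8 fits. The adjusted p of edgeR's test was between 0.0288 and 0.152 there, and under 0.05 without IS replicate 3 or without IDch replicate 4 (log2 fold change 0.31).

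ISch females had 11353, 13494, 10195 and 12053 normalized counts of Tf, which overlapped with IS. Their log2 fold change of 0.23 (SE 0.083, adjusted p = 0.189 from edgeR's test, p = 0.086 in the exact permutation test) was lost without IS replicate 2 or ISch replicate 2. ID females, at 10002, 11131, 11348 and 11572, also overlapped with IS and had a log2 fold change of 0.14 (SE 0.06). All 4 were below the lowest IDch rat, with a log2 fold change of 0.18 for IDch against ID (SE 0.055, adjusted p = 0.116 from edgeR's test).

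In males, the Tf level did not separate the diet groups. Mean normalized counts were 4128 for IS, 4072 for ISch, 4065 for FID and 4017 for FIDch, and all neighbours in this order overlapped. The log2 fold changes against IS were -0.02 in ISch, -0.03 in FID and -0.04 in FIDch, with 95% intervals that reached at most 0.19 upward and -0.25 downward. FID replicate 3 was the lowest male rat at 3138, and the other FID rats had 4363, 4269 and 4489.

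Since Tf transcripts come largely from oligodendrocytes, their level was set beside the sum of 10 oligodendrocyte marker genes, which include neither Tf nor another of the iron genes. In bulk tissue, fewer cells of a type and less RNA per cell cannot be told apart. The marker sum was 7460 to 9660 CPM in female IDch, 6660 to 9530 in ISch, 7360 to 8270 in ID and 6850 to 8440 in IS. Of the 10 markers, 1 was higher and 0 lower at the criterion in female IDch against IS, where 8.98% of all genes were called, with a median log2 fold change of 0.01. The marker called was Ugt8, an enzyme of myelin lipid synthesis, with a log2 fold change of 0.22 (SE 0.058, adjusted p = 0.147 from edgeR's test). The part of the other cell type markers given with Tfrc was not tested for Tf either.

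Across rats, Tf rose with the marker sum. The permutations below ran over all 16 rats of a sex without regard to diet group, so their p-values mix differences between and within groups. Over the 16 males, Pearson's r was 0.63 (permutation p = 0.0086, adjusted over 2 relations 0.017) and Spearman's rho 0.61 (permutation p = 0.014, adjusted 0.028). Over the 16 females, r was 0.55 (permutation p = 0.027, adjusted 0.027) and rho 0.43 (permutation p = 0.1, adjusted 0.1). Without the 2 rats farthest from the median marker sum, r was 0.39 in males and 0.21 in females. Leaving out rats by an extreme marker sum narrows its range, which by itself tends to lower r. The drop therefore does not show how far the relations rest on those rats. The rats left out were FID replicate 3 and IS replicate 4 in males and ISch replicate 2 and IDch replicate 4 in females. The part of oligodendrocyte content in the female Tf difference was not tested beyond this.

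**Figure D3:**
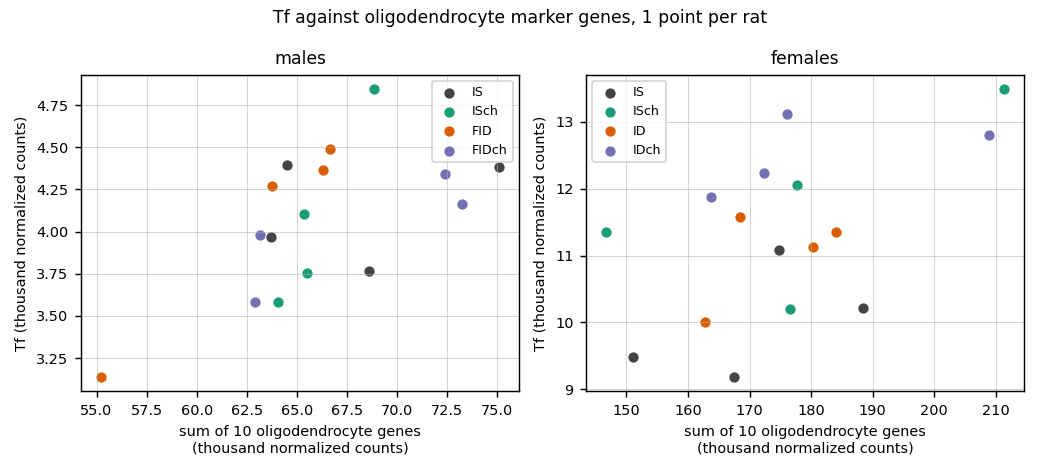
Normalized counts of Tf (vertical axis) against the summed normalized counts of 10 oligodendrocyte genes (horizontal axis) in males (left) and females (right), 1 point per rat, coloured by diet group. The axes do not start at 0. The 4 female IDch rats lie above the 4 IS rats in Tf at overlapping marker sums, and 1 male FID rat is lowest on both axes.

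Tfrc and Tf, the genes that rose in female IDch rats, are transcribed from start regions of different make-up. The 100 bases before each annotated start are shown from RefSeq's annotation of assembly GRCr8. Windows of 250 bases were found for 8 of the 10 genes, and 9 windows in all. Capitals mark matches to 3 short motifs searched on both strands, which do not overlap each other: ACGTG, the core of the hypoxia response element, GGGCGG, the GC box, and TATAAA, the TATA box.
Tfrc, chr11:81690319-81690418, minus strand: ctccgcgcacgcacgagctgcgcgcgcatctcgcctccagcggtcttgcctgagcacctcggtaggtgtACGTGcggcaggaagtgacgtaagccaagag
Tf, chr8:112695377-112695476, minus strand: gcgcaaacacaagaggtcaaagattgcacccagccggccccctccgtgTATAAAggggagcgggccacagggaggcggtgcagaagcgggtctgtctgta

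The Tfrc window holds ACGTG from 31 to 27 bases before the start. It was the only window of these genes with that motif, which 16.6% of all 33469 promoter windows of 250 bases hold. The Tf window holds TATAAA from 52 to 47 bases before the start, and the Cp window holds TATAAA as well. The TATA box letters occur in 12.9% of all windows. GC box letters were in the windows of Aco1, Ireb2, Slc11a2, Slc40a1 and Steap3, and in 30.5% of all windows. These are matches of letters only. The counts do not bear on whether a factor binds there.

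Steap3 (ENSRNOG00000049471), the endosomal reductase, was called in no comparison. Its levels were 78.6 ± 4.12 (SD, n = 4) in male IS and 65.7 ± 8.44 in ISch, 66.5 ± 14.3 in FID and 62.1 ± 14 in FIDch, all groups overlapping. The log2 fold changes against IS were -0.26 (SE 0.13), -0.25 (SE 0.16) and -0.30 (SE 0.16), with adjusted p-values of 0.498, 0.786 and 0.661 from edgeR's test. These depended on single libraries. Without ISch replicate 1, the highest ISch rat at 78.3, the ISch value was -0.36 and met the criterion. Without FIDch replicate 1 the FIDch value was -0.45 and met it as well. In females the group means lay between 221.7 in ID and 241 in ISch, with log2 fold changes against IS from -0.09 to 0.03.

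Slc11a2 (ENSRNOG00000019550), the transporter that moves iron out of the endosome, varied little. Its levels spanned 462 to 556 normalized counts over the 16 males and 1280 to 1540 over the 16 females, a 1.2-fold and a 1.21-fold range. The 4 female IDch rats, with a mean of 1476 ± 26.6, were above the 4 ID rats at 1365 ± 62.7. This log2 fold change of 0.11 (SE 0.05, adjusted p = 0.283 from edgeR's test, p = 0.029 in the exact permutation test) was under the criterion's size.

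Ferritin heavy chain transcripts (Fth1, ENSRNOG00000022619) were among the most heavily counted of these genes and differed little between diets. Male means were 8103 ± 509.8 in IS and 8058 ± 913 in FID, and with choline 7679 ± 254 in ISch and 7584 ± 633 in FIDch. Female means were 26480 ± 2233 in IS and 26570 ± 2419 in ID, and with choline 29370 ± 2344 in ISch and 28270 ± 2121 in IDch. All neighbouring groups overlapped in both sexes, and the log2 fold changes against IS lay between -0.09 and 0.15. RefSeq lists 6 further genes or pseudogenes whose symbols add -ps or l and a number to Fth1, and 21 that do so to Ftl1. No symbol of that form is in the count tables. Copies entered there under other names were not searched for. How the counting treated reads that match several copies is not stated.

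The light chain gene Ftl1 (ENSRNOG00000031506) had 0 to 4 counts per male library, too few to be tested, and 7 to 30 per female library. Female means were 14.6 ± 4.62 in IS, 11.9 ± 4.83 in ISch, 15.9 ± 5.05 in ID and 18.5 ± 6.68 in IDch. The fold change farthest from 0 among the 10 genes in the comparison of female IDch with ISch was that of Ftl1, 0.63 on the log2 scale (SE 0.38, adjusted p = 0.692 from edgeR's test). No difference in Ftl1 was detected at these counts. Fth1 had 21271 to 34564 counts per female library. Whether reads shared with the Ftl1 copies were left uncounted was not tested, so the Ftl1 counts may not reflect its transcript level.

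Ferroportin (Slc40a1), the iron exporter, was near the lower limit of detection. The entry ENSRNOG00000003872 had 5 to 24 counts per male library and 10 to 56 per female library, and the second entry, ENSRNOG00000049995, had 0 counts in all libraries of both sexes. Group means were 9.53 ± 3.04 to 14 ± 3.23 normalized counts in males and 29.9 ± 13.1 to 42.6 ± 7.03 in females, with overlap everywhere. The change farthest from 0 was in male FIDch against FID, at 0.56 (SE 0.31, adjusted p = 0.359 from edgeR's test). The interval of that change ran from -0.10 to 1.23.

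Ceruloplasmin (Cp, ENSRNOG00000011913), a ferroxidase that acts with ferroportin, had its lowest female level in ID. ID females had 135.9 ± 7.90 normalized counts and IS females 154.7 ± 10.1, without overlap. The log2 fold change of -0.18 (SE 0.097, adjusted p = 0.516 from edgeR's test, p = 0.029 in the exact permutation test) did not meet the criterion. ISch females had 177.5 ± 19.3 and IDch females 162 ± 21.3. In males the means ran from 63.5 ± 11.1 in FIDch to 76.6 ± 7.16 in FID, all overlapping.

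**Figure D4:**
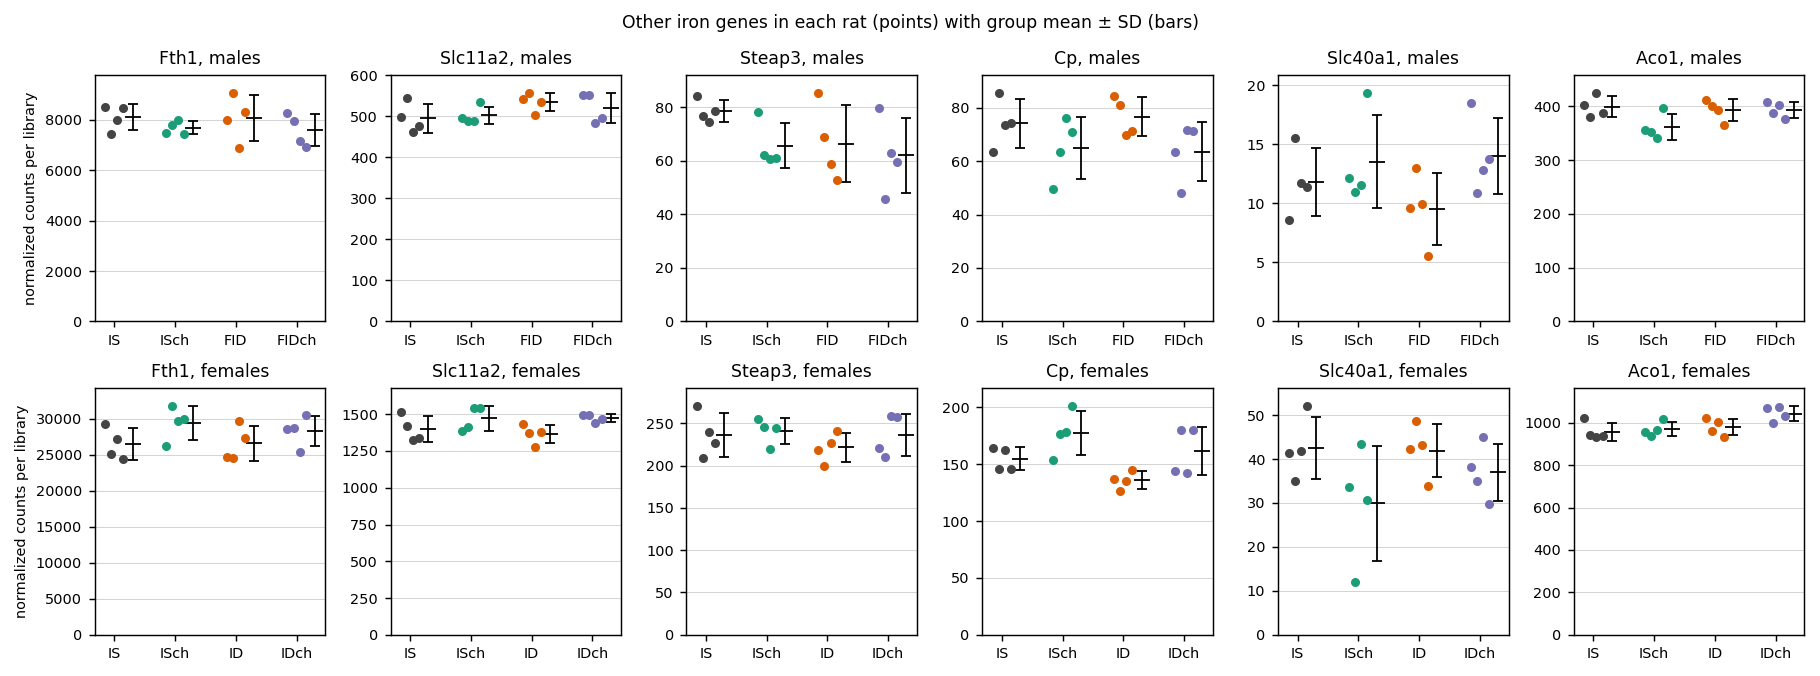
Normalized counts of Fth1, Slc11a2, Steap3, Cp, Slc40a1 and Aco1 in each rat (points, vertical axis from 0) by diet group, with group mean ± SD beside them, in males (upper panels) and females (lower panels). Neighbouring diet groups overlap in nearly all panels, and female Cp is lowest in ID.

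Of the regulators, Ireb2 (ENSRNOG00000013271), which encodes the iron regulatory protein that is itself degraded when iron is plentiful, was called in male FIDch against FID. FIDch rats had 301, 397, 354 and 330 normalized counts and FID rats 410, 401, 422 and 394. The groups overlapped, since the highest FIDch rat was above the lowest FID rat. The log2 fold change was -0.26 (SE 0.082, adjusted p = 0.13 from edgeR's test), with p = 0.057 in the exact permutation test. It was -0.19 without FIDch replicate 1, the lowest of these rats, and then missed the criterion.

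Against IS, where the rats spread from 268 to 429, the Ireb2 changes of -0.09 in FIDch (SE 0.13) and 0.15 in FID (SE 0.12) were not called. ISch rats were at 366, 387, 361 and 392, all below the lowest FID rat. In females Ireb2 was highest in ID, at 948.5 ± 76.5, and the means of IS, ISch and IDch were 872, 891 and 873. All neighbouring female groups overlapped. Aco1 (ENSRNOG00000005849), cytosolic aconitase and the other iron regulatory protein, ranged over 342 to 425 normalized counts in males and 931 to 1070 in females. Its log2 fold changes between pairs of groups ran from -0.14 in male ISch against IS (SE 0.073, adjusted p = 0.527 from edgeR's test) to 0.12 in female IDch against IS (SE 0.051, adjusted p = 0.342 from edgeR's test).

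The 9 genes tested in both sexes did not move as a block across rats. Over the 16 males, pairwise correlations of their log2 CPM ran from -0.33 for Tfrc with Slc40a1 to 0.56 for Cp with Tf. Over the 16 females they ran from -0.72 for Ireb2 with Fth1 to 0.71 for Cp with Fth1. Tfrc and Tf had r = 0.16 in males and 0.43 in females. These are descriptions over libraries that share their diet groups.

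The genes whose pattern over rats was most like that of a given iron gene were ranked by the smaller of its correlations in the 16 male and the 16 female libraries, over 12630 genes. For Tf they were Lap3 (r = 0.79 in males and 0.85 in females), Bdnf (0.67 and 0.69) and Ugt8 (0.66 and 0.77). For Tfrc they were Usp47 (0.73 and 0.68), Fxr1 (0.63 and 0.66) and Hspa4 (0.65 and 0.63). Ireb2 was most like Znrf2 (0.80 and 0.81), Dnm1l (0.80 and 0.80) and Chic1 (0.85 and 0.79). Depth is shared by genes of the same library, and no test was made of these values.

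Other genes of iron handling were read from a list of 41 symbols, of which 38 are in the tables and 29 or 30 passed the filter in each comparison. In males, 0 were higher and 2 lower at the criterion in ISch against IS (8.06% of all genes, in either direction), 0 and 0 in FID (4.62%), 0 and 1 in FIDch (6.12%), 0 and 4 in FIDch against FID (13.0%), and 0 and 1 in FIDch against ISch (8.12%). In females, 3 were higher and 0 lower in ISch against IS (10.3%), 0 and 0 in ID (6.47%), 2 and 0 in IDch (8.98%), 1 and 1 in IDch against ID (12.7%), and 0 and 0 in IDch against ISch (4.57%). Except in male FIDch against FID, with 4 of 29, the called share of the list was below that of all genes. None had an adjusted p under 0.05 within a sex. The median log2 fold changes of the list lay between -0.07 and 0.05, and those of all genes between -0.01 and 0.01.

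Steap4 and Cybrd1, which encode metal reductases, were called in both sexes. Each call was higher with choline in females and lower with choline in males. The male call of Cybrd1 was in FIDch against FID and not in ISch or FIDch against IS. Steap4 (ENSRNOG00000008602) had 11.5, 17.8, 22.2 and 20.5 normalized counts in male IS and 0.932, 3.67, 12.6 and 8.87 in male ISch. The ISch rats were lower except for 1 that overlapped with the lowest IS rat. In females the order was the other way, with 6.71, 7.69, 10.7 and 5.58 in IS and 23.8, 12, 28.2 and 18.6 in ISch, without overlap. The log2 fold changes of ISch against IS were -1.43 (SE 0.47, adjusted p = 0.367 from edgeR's test) in males and 1.41 (adjusted p = 0.0639 from edgeR's test) in females.

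Steap4 followed the same pattern in FIDch and IDch rats against IS, comparisons that combine the iron-deficient diet with choline. Male FIDch rats had 8.33 ± 2.07 normalized counts, all below the 4 IS rats at 18.0 ± 4.70, and their log2 fold change was -1.14 (adjusted p = 0.33 from edgeR's test). Female IDch rats had 19.0 ± 8.03 against 7.67 ± 2.20 in IS, with 1 rat in the range of IS, and a log2 fold change of 1.28 (adjusted p = 0.19 from edgeR's test). The gene is rare in this tissue, with raw counts of 1 to 19 per male library and 6 to 28 per female library. The library names of male ISch replicates 1 and 2 and FIDch replicate 2 have another form than the rest. Those ISch rats were the lowest of their group, and without them the ISch change was -0.75 and was not called. The FIDch change against IS was still called without FIDch replicate 2. For FIDch against FID the log2 fold change of Steap4 was -0.77 (SE 0.3, adjusted p = 0.205 from edgeR's test), without overlap. That call was lost without FID replicate 3 (-0.63) or FIDch replicate 1 (-0.62). It was also lost with DESeq2 and with the 4 diet groups in a joint fit, at -0.76 in both. Steap4 was not called in female IDch against ID.

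Cybrd1, the duodenal-type ferric reductase, was higher in female ISch than in IS, at 64.8 ± 5.67 against 41.8 ± 11, without overlap. Its log2 fold change was 0.64 in ISch and 0.62 in IDch against IS, and 0.54 in IDch against ID. In males, with raw counts of 8 to 44 per library, it was lower in FIDch than in FID. The levels were 15 ± 2.28 against 25.7 ± 10.4, with a log2 fold change of -0.84, and the groups overlapped. Single libraries decided several of these calls. In females they were lost without IS replicate 3 (0.55), IS replicate 4 (0.49) or IDch replicate 2 (0.50) for IDch against IS, and without IDch replicate 2 (0.42) for IDch against ID. In males the call was lost without FID replicate 4 (-0.60), the library with the highest choroid plexus sum, or FIDch replicate 3 (-0.72). It was also lost with the 4 diet groups in a joint fit (-0.83).

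The further genes called within a sex were Heph, a ferroxidase (0.52 in female ISch against IS), Snx3, which recycles the transferrin receptor (-0.23 in male ISch against IS), and Bdh2, an oxidoreductase (-0.74 in male FIDch against ISch). Exoc6 (-0.22), which takes part in the transferrin cycle, and Fbxl5 (-0.21), which targets the Ireb2 protein for degradation, were lower in male FIDch than in FID. Flvcr2, a membrane transporter, was lower in female IDch than in ID (-0.54). Apart from Fbxl5, for which this was not run, each of these calls was lost when 1 of certain libraries was left out: 4 libraries for Heph, Exoc6 and Bdh2, 2 for Flvcr2 and 1, male IS replicate 1, for Snx3. Bdh2 is rare here, with raw counts of 4 to 7 per male FIDch library and 11 to 14 per male ISch library. Its call was also lost with DESeq2 and with all genes of at least 1 count, at -0.73 in both. Male FID replicate 4 was among the libraries for Exoc6, at -0.19 without it.

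**Figure D5:**
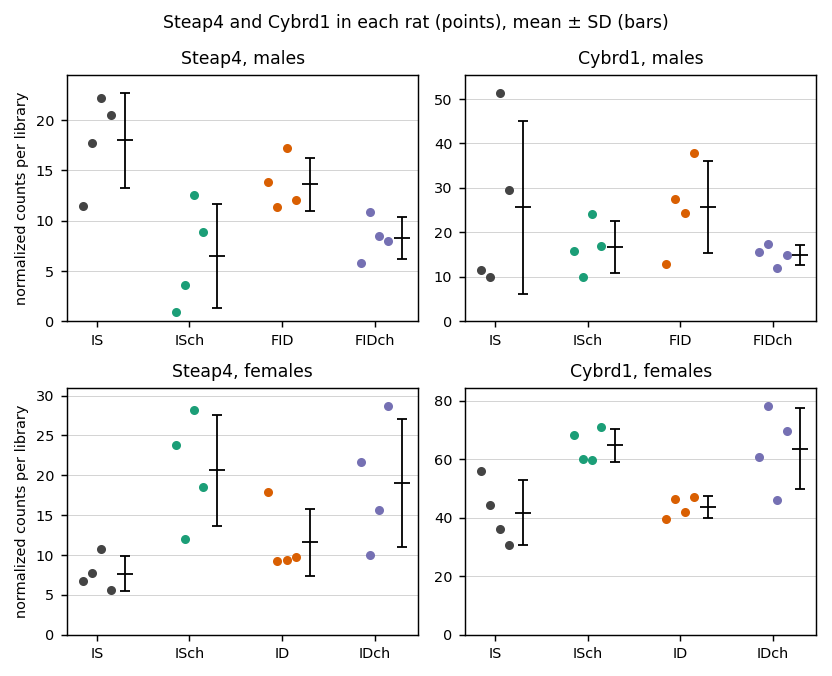
Normalized counts of Steap4 and Cybrd1 in each rat (points, vertical axis from 0) by diet group, with group mean ± SD beside them, in males (upper panels) and females (lower panels). For Steap4 both choline groups lie mostly below IS in males and mostly above IS in females.

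Joint models compared the sexes, contrast by contrast, through the female minus the male log2 fold change against IS. Sex and sequencing batch cannot be told apart in it. For ISch, 1 of 9 iron genes met the criterion (14.2% of all genes), Fth1 at 0.22 (SE 0.089, adjusted p = 0.237 from edgeR's test). Leaving out male IS replicate 4, female IS replicate 2 or 4 or female ISch replicate 2 took Fth1 below the criterion. For ID, 0 of 9 met it (7.64%).

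For IDch, 2 of 9 met it (12.9%), Tfrc at 0.39 (SE 0.11, adjusted p = 0.107) and Tf at 0.37 (SE 0.098, adjusted p = 0.101), both from edgeR's test. The male changes against IS were -0.03 for Tfrc and -0.04 for Tf, and the female changes were 0.35 and 0.32. With any 1 of the 16 libraries left out, both differences still met the criterion, with values of 0.31 to 0.44 for Tfrc and 0.32 to 0.41 for Tf.

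Among the other iron genes, 5 were higher and 0 lower in the sex difference for ISch (14.2% of all genes), 1 and 1 for ID (7.64%), and 5 and 0 for IDch (12.9%). Steap4 was the gene with an adjusted p under 0.05, at 2.85 (SE 0.63, adjusted p = 0.0303) for ISch and 2.43 (SE 0.51, adjusted p = 0.0398) for IDch, both from edgeR's test. With single libraries left out, the values stayed between 2.5 and 3.34 for ISch and between 2.17 and 2.65 for IDch. The adjusted p of edgeR's test was under 0.05 in 8 of 16 such fits for ISch and in 5 of 16 for IDch, and the criterion was met in all of them. These fits left out 1 library at a time. Without male ISch replicates 1 and 2 together, the libraries of another name form, the male ISch change of Steap4 was -0.75 and was not called.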

How the data were processed

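The deposited values are raw counts per gene from hippocampal RNA, 1 table per sex, without normalization. Per the study's methods and the submitters' processing notes, the authors used FastQC, Trimmomatic, HISAT2 and featureCounts (Subread) on build Rnor_6.0. The annotation version, use of strand and treatment of reads that match several genes are not given in the sources used here, so counts of genes with near-identical copies or overlapping neighbours are uncertain. Groups, sexes and batches came from the labels.

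The count model was edgeR 4.0.16 under R 4.3.3. A comparison of 2 groups used only their 8 libraries and all genes passing filterByExpr, with TMM normalization and the quasi-likelihood test, and p-values were adjusted over all genes by the Benjamini-Hochberg method. Normalized counts are counts divided by the TMM-scaled library total and multiplied by the mean of these totals within a sex, so they are not comparable between sexes or between genes. Interactions used all 16 libraries of a sex, and differences between the sexes the 16 libraries concerned. Exact permutation tests of normalized counts were 2-sided. Correlations with the oligodendrocyte sum used 100000 permutations. Totals were 3515806 to 9517503 counts per male library and 18439999 to 26616318 per female library. A zero is compatible with up to 3 counts at 95% confidence, for counting error only.

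Alternatives were DESeq2 1.42.0, RLE size factors, all genes with at least 1 count, the 4 diet groups of a sex in a joint fit, the replicate number as block, a limit of 0.05 on the adjusted p as the call, and leaving out single libraries or those whose names have another form. The fit of male FIDch against FID, and the male interaction, without FID replicate 4 and FIDch replicate 2 were added after seeing the data. The main edgeR model and DESeq2 were first tested on simulated counts, for some of the comparisons. The other alternatives were not tested in this way.

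All 10 iron genes are named. Other iron genes are named if they ranked among the 3 most changed of those at the criterion in a comparison, and Fbxl5 was named after its value was seen. The iron genes, the lists and the motifs were chosen with earlier results of these data known. Lists of astrocyte, microglia, endothelial and blood genes were read as well. Replicates were separate rats. Replicate pairs differed by a chi-square per gene of 2.02 to 25.2 against counting noise alone.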

Additional observations from a re-analysis of the deposited data

Results flagged for a closer look

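Within single diet groups, 76 sets of 4 rats were examined for a rat far from the other 3, measured by the gap to the nearest rat over the group's range, against Dixon's 95% critical value. Chance gives about 1 such set in 20, and 5 were found. Tf was 3140 normalized counts in male FID replicate 3, while the nearest FID rat had 4270. Steap3 was 78.3 in male ISch replicate 1 with the next at 62.3. Male ISch replicate 4 was highest for Slc40a1, at 19.4 with the next at 12.1, and for Slc11a2, at 534 with the next at 496. Aco1 was 1020 in female IS replicate 1 and 943 in the nearest rat. Without ISch replicate 1 the Steap3 change of male ISch against IS met the criterion.

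Effects that differed between groups at the criterion were tested as interactions in edgeR's quasi-likelihood model. The choline change of Tfrc differed between formerly iron-deficient and iron-sufficient males by -0.27 on the log2 scale. Between the sexes (female minus male, which cannot be told apart from the sequencing batch), Fth1 differed by 0.22 for ISch against IS. For IDch against IS, Tfrc differed by 0.39 and Tf by 0.37.

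Among the other iron genes, the differences between the sexes were 2.85 for Steap4, 1.22 for Cybrd1 and 1.19 for Heph in ISch against IS. In ID against IS they were 0.98 for Steap4 and -0.59 for Meltf, a membrane-bound relative of transferrin. Without male FID replicate 4 these values were 0.94 and -0.41 and missed the criterion, as they did without several other single libraries. In IDch against IS the differences between the sexes were 2.43 for Steap4, 1.40 for Cybrd1 and 1.28 for Bdh2. Without male IS replicate 3, the highest IS male for Cybrd1, the Cybrd1 values were 0.65 for ISch and 0.82 for IDch. Both then missed the criterion, and the ISch value also missed it without several other single libraries. The Steap4 values for ISch (adjusted p = 0.0303) and IDch (adjusted p = 0.0398 from edgeR's test) passed an adjusted p under 0.05, and the rest did not.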

How the results depend on the processing

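The counts of called iron genes are small and move with the settings, and with raw counts of 0 to 56 for Ftl1 and Slc40a1 only large differences could be detected. With an adjusted p under 0.05, the called iron genes fell to 0 in male FID against IS, male FIDch against FID, female ISch against IS, the male interaction and the sex differences for ISch and IDch. The calls of all genes under that limit were 29, 0, 18, 179 and 6 in male ISch, FID and FIDch against IS, FIDch against FID and FIDch against ISch, and 368, 28, 133, 334 and 1 in the same order in females. They were 1 and 1 for the male and female interactions and 194, 6 and 55 for the sex differences in ISch, ID and IDch. At the criterion, all genes with at least 1 count gave 1023 genes in place of 640 in male FID against IS, and 2 iron genes for the male interaction. The 4 diet groups in a joint fit gave 1 iron gene in female IDch against ID. Without the libraries of another name form, 1 iron gene was called in male ISch against IS and in male FIDch against ISch, and 679 of all genes in place of 1125 in ISch against IS. The causes were not tested. Leaving out single libraries gave 0 to 1 iron genes in male ISch and FIDch against IS, FIDch against ISch, female ID against IS and female IDch against ISch, 0 to 2 in male FID against IS, female IDch against ID and the male interaction, 1 to 3 in male FIDch against FID, 0 to 3 in female ISch against IS and the sex difference for ISch, and 2 to 4 in that for IDch. All genes called ranged from 815 to 1811, 392 to 1236 and 681 to 1267 in male ISch, FID and FIDch against IS, from 572 to 1025 in female IDch against ISch, and from 879 to 1768 in the sex difference for ID. Without male FID replicate 4 and FIDch replicate 2, both Tfrc (-0.20) and Ireb2 (-0.33) met the criterion in FIDch against FID, and the Tfrc interaction (-0.22) did not. No gene value recomputed under these settings changed direction, and none was recomputed for Aco1, Slc11a2 and Fbxl5.

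Replicate numbers did not pair the rats: over 24 same-numbered pairs per sex, correlations of deviations ran from -0.15 to 0.22 in males and -0.13 to 0.15 in females, and 5 of 16 libraries of each sex correlated best with their own number. With the replicate block, the called iron genes went from 1 to 0 in male FID against IS (Tfrc 0.21) and in the sex difference for ISch (Fth1 0.22) and from 1 to 2 in the male interaction. Tfrc and Tf in female IDch against IS kept the criterion, with log2 fold changes of 0.35 and 0.33 and adjusted p-values of 0.0678 and 0.183 from edgeR's test. The Steap4 sex difference was 2.95 for ISch (adjusted p = 0.041) and 2.36 for IDch (adjusted p = 0.112 from edgeR's test), and the calls of Heph (0.48), Exoc6 (-0.22) and Bdh2 (-0.73) were lost.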

Other observations

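Of 8 microglial genes tested in females, 0 were higher and 3 lower at the criterion in ISch against IS (10.3% of all genes were called) and 0 and 1 in IDch (8.98%), with median log2 fold changes of -0.18 and -0.12. Their summed level was 229 to 259 CPM in ISch, 242 to 252 in IDch and 265 to 278 in IS, so that neither choline group overlapped with IS. Of 8 astrocyte genes, 1 was higher and 0 lower in ISch and 1 and 1 in IDch. The gene lower in IDch was Gja1, the astrocytic connexin, at -0.23 (SE 0.047, adjusted p = 0.0563 from edgeR's test). The gene higher was Aldh1l1, a folate enzyme, at 0.28 (SE 0.072, adjusted p = 0.13 from edgeR's test) in IDch and 0.36 (adjusted p = 0.0215) in ISch. In IDch against ID, 2 were higher and 0 lower (12.7% of all genes were called). They were Aldh1l1 at 0.36 (adjusted p = 0.0346) and Aqp4 at 0.30 (adjusted p = 0.0239), both from edgeR's test. Of 6 endothelial genes tested, 0 were higher and 1 lower in female IDch against IS.

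Transcripts of haemoglobin chains and Alas2, markers of blood in the tissue, were seen in all groups. The summed level of the 4 listed genes with entries was 71 to 195 CPM in males and 87.1 to 319 CPM in females. In female ISch against IS, 2 of 5 entries tested were higher at the criterion (10.3% of all genes were called), both of Hba-a2. Their log2 fold changes were 0.52 and 0.50 (adjusted p = 0.301 and 0.284 from edgeR's test). In males the first of these entries was the 1 called of 5 in ISch against IS (-0.47, with 8.06% of all genes called) and in FIDch against ISch (0.33, 8.12%). It was likewise the 1 called of 5 for the male interaction (0.64, 14.4%) and the difference between the sexes in ISch (0.98, 14.2%). Their part in the iron gene differences was not tested.

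The remaining iron genes had the following closest patterns across the 16 male and 16 female libraries, again as a description. Fth1 was most like Gsto1 (r = 0.73 in males and 0.80 in females), Cp was most like Lmf1 (0.78 and 0.74), and Slc11a2 was most like Parp16 (0.65 and 0.78). Slc40a1 was most like Slc29a3 (0.62 and 0.72), Steap3 was most like Txnl4a (0.65 and 0.67) and Aco1 was most like Rnh1 (0.57 and 0.59).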
